A study of Mus musculus with 10 samples.

Results

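The genes described here are the Rag GTPases, the folliculin complex and the MiT/TFE transcription factors, 10 genes of 52550 in the count table, looked up by symbol: Rraga, Rragb, Rragc, Rragd, Flcn, Fnip1, Fnip2, Tfeb, Tfe3 and Mitf. The set was chosen by the measured change of Rragd: it was lower when miR-139 was induced, and the other 9 were added for their place in the same pathway, with results of these data known. The induction contrast of Rragd is therefore given as a description with no test. In the 10 libraries together, 9 of the 10 genes reached 10 counts. Rragb had 4 counts, spread over 4 libraries, and counts as not measured.

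The libraries come from hematopoietic stem and progenitor cell enriched bone marrow of wild-type C57BL/6 mice that was transformed with the fusion oncogene MLL-AF9, and all of them carry the repressor construct pBabe-tetR-KRAB-Hygro. In MLL-AF9-i139 cells doxycycline (DOX) induces miR-139 from the vector pCW-miR-139, and in MLL-AF9-ieGFP cells it induces eGFP. Each of 3 MLL-AF9-i139 clones was sequenced without DOX (noDOX) and with DOX at 5 µg/mL, for 48 h in clones 1 and 2 and for 72 h in clone 3, so that clone 3 and the longer time cannot be told apart. For the untreated cultures of these 3 clones no time is given. The control is 1 MLL-AF9-ieGFP clone without and with DOX at 48 h and at 72 h, so its 2 libraries per condition are time points of 1 clone. Libraries held between 35133308 and 47089725 counts in total. Libraries of the same condition differed by more than sampling noise, and p-values of fits without a term for the clone measure the spread between clones. Where the clone is in the model as a block, p-values measure how far the difference with DOX varied between clones. In fits over all 10 libraries either spread is pooled with that between the times of 1 clone. Levels are CPM (counts scaled to a common library size) after TMM normalization, and 3 counts in a library are between 0.0637 and 0.0854 CPM before the TMM factors.

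The Mir139 hairpin had 0 counts in every library and its host gene Pde2a 1 count, and 100% of the body of each lies inside another annotated gene, so neither checks the DOX labels. Against the labelled cell type, the 9 immature myeloid markers were the most abundant, summing to between 3266 and 7241 CPM over the 10 libraries, whereas the 5 T cell markers reached at most 5.13 CPM, the 4 B cell markers 1.39 CPM, the 5 erythroid markers 2.69 CPM, the 4 megakaryocyte markers 2.97 CPM and the 5 stromal markers 38.4 CPM.

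As background, Rag GTPases work as pairs of RagA or RagB with RagC or RagD on the surface of the lysosome, where they bring the kinase complex mTORC1 to its activator when amino acids are present. Folliculin, with FNIP1 or FNIP2, makes RagC and RagD hydrolyse their GTP. This state lets mTORC1 phosphorylate TFEB and TFE3, which keeps these factors in the cytosol. When they are released, they enter the nucleus and switch on lysosome and autophagy genes through the DNA motif CACGTGA. MITF is best known for melanocytes, mast cells and osteoclasts.

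The sequences that connect the induced RNA to these genes are its 2 arms and their matches in 3′ UTRs. The mature arms lie on the plus strand of chromosome 7 of GRCm38, miR-139-5p at chr7:101475382-101475403 and miR-139-3p at chr7:101475418-101475439, within the Mir139 hairpin. They are printed 5′ to 3′ as RefSeq gives them (GRCm38.p6), with the seed, bases 2 to 8, in capitals:
miR-139-5p: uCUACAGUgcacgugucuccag
miR-139-3p: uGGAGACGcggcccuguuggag
The seeds are not shared. A match was counted where the longest annotated 3′ UTR of a gene held the complement of bases 2 to 8, or of bases 2 to 7 followed by A (7 bases), or both (8 bases). Of the 10 genes, 4 hold a match to miR-139-5p, and none of the 10 holds a match to miR-139-3p. Among all 21037 genes with a 3′ UTR, 19.5% hold a match to miR-139-5p and 14.2% to miR-139-3p.

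The matches to miR-139-5p are shown because only these 4 genes hold them. They were read from GENCODE M21 transcripts on GRCm38 and all lie in the last exon of their transcript. Rragd holds them at chr4:33021120-33021144 and chr4:33021474-33021499 on the plus strand, 2331 and 2685 bases into a 3′ UTR of 3382 bases. Flcn holds one at chr11:59791940-59791965 on the minus strand, Fnip2 one at chr3:79459077-79459101 on the minus strand, and Mitf holds a pair at chr6:98019665-98019689 and chr6:98019917-98019941 on the plus strand. Capitals mark the matching bases:
Rragd, 7 bases: tttaataagACTGTAGtttcaaaat
Rragd, 8 bases: gcttactgcACTGTAGAtctgtgtct
Flcn, 8 bases: taaccagccACTGTAGActatgacgg
Fnip2, 7 bases: cagagcttcCTGTAGActcagcaca
Mitf, 7 bases, first: atgcaatatCTGTAGAgttacatgt
Mitf, 7 bases, second: gtggtgcctCTGTAGAcattctaag
Rragd and Flcn are the genes of the set with an 8-base match. Matches are frequent in long 3′ UTRs: among genes with a 3′ UTR of about the length of that of Rragd (from 0.8 to 1.25 times its length), 44.5% hold one, and for Flcn, Fnip2 and Mitf these shares are 17.5%, 47.5% and 42.4%. A match is a run of letters and does not show that the RNA is bound.

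The second kind of sequence is the motif of the MiT/TFE factors themselves. In RefSeq promoter windows of 300 bases (250 before the gene start and 50 after it), searched on both strands for CACGTGA, 3 of the 10 genes hold the motif, Rragb, Rragc and Fnip1, against 1160 of 27025 genes (4.29%) in all. Tfeb, Tfe3 and Mitf have several windows each, none with the motif. The windows around it are shown for the 3 genes (GRCm38.p6, all on the plus strand), with the motif in capitals and, for Rragb, its position from the gene start. Those of Rragb lie at chrX:153139819-153139848, chrX:153139910-153139939 and chrX:153139943-153139972, that of Rragc at chr4:123917309-123917338 and that of Fnip1 at chr11:54438092-54438121:
Rragb, motif at -127: gagagcccgggcCACGTGAtggcgggtggc
Rragb, motif at -36: aaagggtagcggCACGTGAcaggccctggg
Rragb, motif at -3: acggcaggttccCACGTGAtcctggcctgc
Rragc: ggtgattccgggCACGTGAtagtaccactt
Fnip1: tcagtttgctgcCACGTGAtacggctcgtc
Rragb holds 3 copies of the motif and had 4 counts in these cells.

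**Figure D1:**
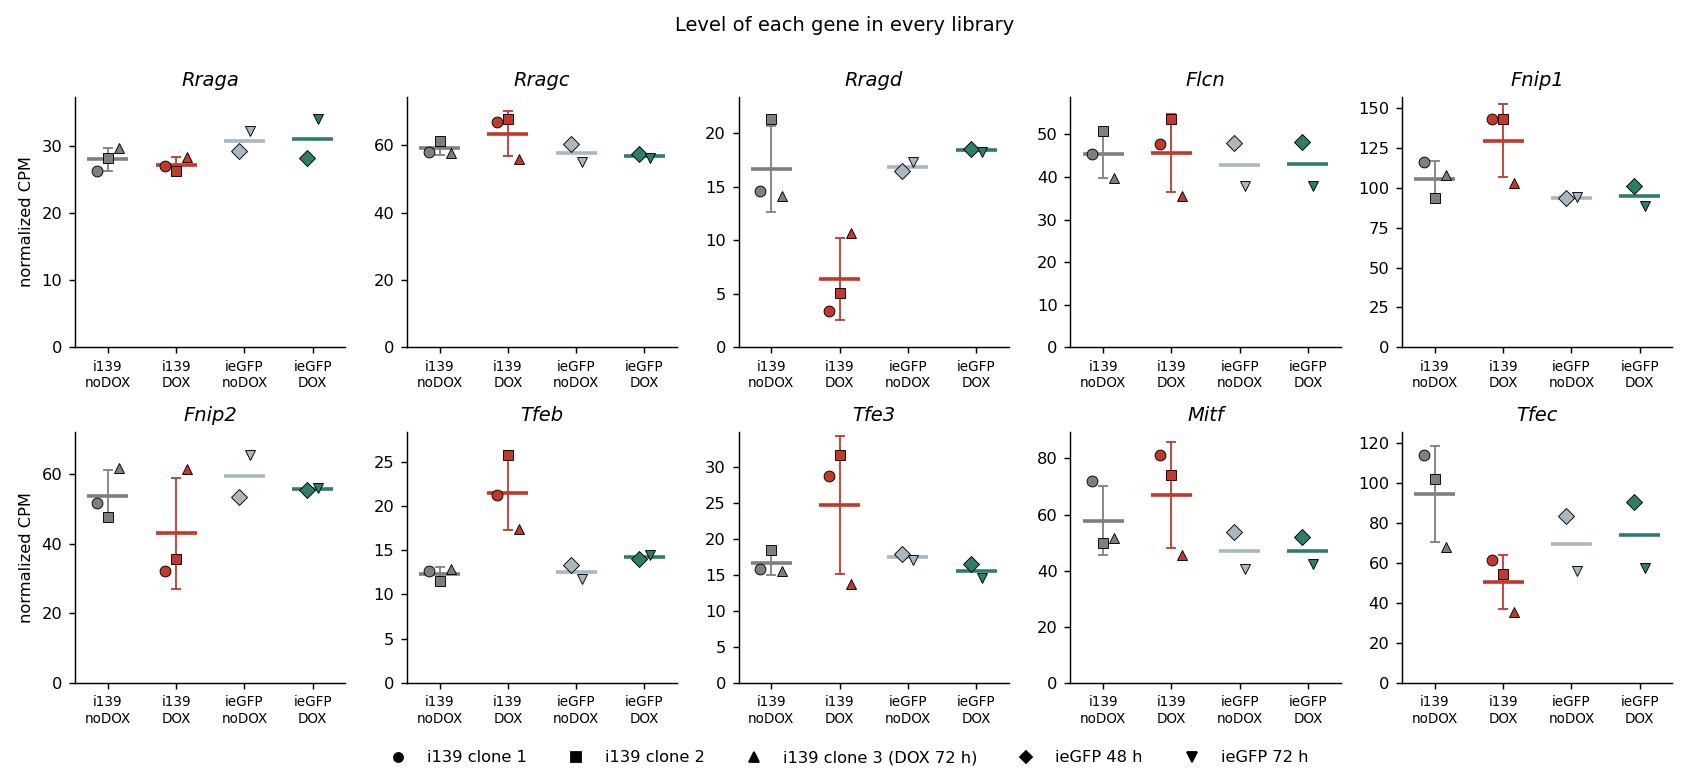
Level of each measured gene and of Tfec in all 10 libraries, in normalized CPM (y axis, from 0) by construct and DOX (x axis). Symbols mark the clone or time, horizontal bars the means and vertical bars the SD (drawn for groups of 3). Rragd sits between 3.40 and 10.7 CPM in DOX-treated MLL-AF9-i139 clones and between 14.1 and 21.3 CPM elsewhere, and the triangles of clone 3 lie nearest to the untreated level for Rragd, Fnip2, Tfeb and Tfe3.

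Rragd encodes RagD, 1 of the alternative partners of RagA and RagB. The gene (ENSMUSG00000028278) spans chromosome 4 from 32983037 to 33022180, plus strand. It had 14.6, 21.3 and 14.1 CPM in untreated MLL-AF9-i139 clones 1, 2 and 3 and 3.40, 5.06 and 10.7 CPM after DOX. The MLL-AF9-ieGFP libraries had 16.5 and 17.3 CPM (untreated, 48 h and 72 h) and 18.5 and 18.3 CPM (treated). The 3 DOX-treated MLL-AF9-i139 libraries were thus the lowest of all 10, at 163, 199 and 421 counts. The mean was 6.39 ± 3.82 CPM with DOX and 16.7 ± 4.01 CPM without (SD, n = 3 clones). On the log2 scale the change was -1.38 with a standard error of 0.39, or 0.385 of the untreated level. The difference was uneven between clones. Clones 1 and 2 kept 0.235 and 0.239 of their untreated level, and clone 3 kept 0.758. Without clone 3 the log2 fold change was -2.07. No p is given for these values, because the gene was selected on them.

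Rragc, which encodes RagC, is the closest relative of Rragd, and Rraga encodes RagA. Rragc (ENSMUSG00000028646, chromosome 4 from 123917446 to 123936997, plus strand) had 58.1, 61.4 and 57.8 CPM in untreated clones 1, 2 and 3 and 67.0, 67.7 and 55.8 CPM with DOX, so the groups overlapped through clone 3. Of its exon bases, 7.9% are shared with an antisense gene, 4930535I16Rik, which had 0 counts. Rraga (ENSMUSG00000070934, chromosome 4 from 86575668 to 86577285, plus strand) is a gene of a single exon, and it had 26.3, 28.2 and 29.7 CPM without DOX and 27.1, 26.3 and 28.4 CPM with DOX. Neither differed beyond its spread: the log2 fold change was 0.12 for Rragc (standard error 0.11, adjusted p = 0.588, edgeR) and -0.03 for Rraga (standard error 0.11, adjusted p = 0.909, edgeR). Over the 10 libraries Rragc ranged from 55.1 to 67.7 CPM and Rraga from 26.3 to 34.0 CPM, whereas Rragd ranged from 3.40 to 21.3 CPM.

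Levels of different genes can be compared per length, in CPM per kb of exon. On this scale Rraga (17.9 ± 1.54) and Rragc (17.9 ± 1.34; SD, n = 10 libraries) were the highest of the set, followed by Fnip1 (15.2 ± 2.80), the added family member Tfec (12.9 ± 4.37), Flcn (10.3 ± 1.44), Mitf (9.09 ± 2.30), Fnip2 (6.23 ± 1.31), Tfeb (2.73 ± 0.821), Rragd (2.70 ± 1.14) and Tfe3 (2.05 ± 0.658). The range of each gene overlapped that of the next gene in this order. Rraga and Rragc did not differ beyond their spread, with Rraga above Rragc in 6 of 10 libraries, and Tfeb was above Rragd in 3 of 10.

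Of the summed level of Rragc and Rragd per kb, Rragd made up 14.0%, 18.3% and 13.6% in untreated clones 1, 2 and 3 and 3.18%, 4.61% and 11.0% with DOX. The control clone had 16.8% in the untreated 72 h library and 17.3% and 17.4% in the treated ones, and its untreated 48 h library lay between untreated clones 1 and 2. In clones 1, 2 and 3 the sum itself was 20.2, 22.5 and 20.0 CPM per kb in untreated and 20.7, 21.2 and 18.8 in treated libraries, so most of the RagC and RagD transcripts were Rragc in every library.

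**Figure D2:**
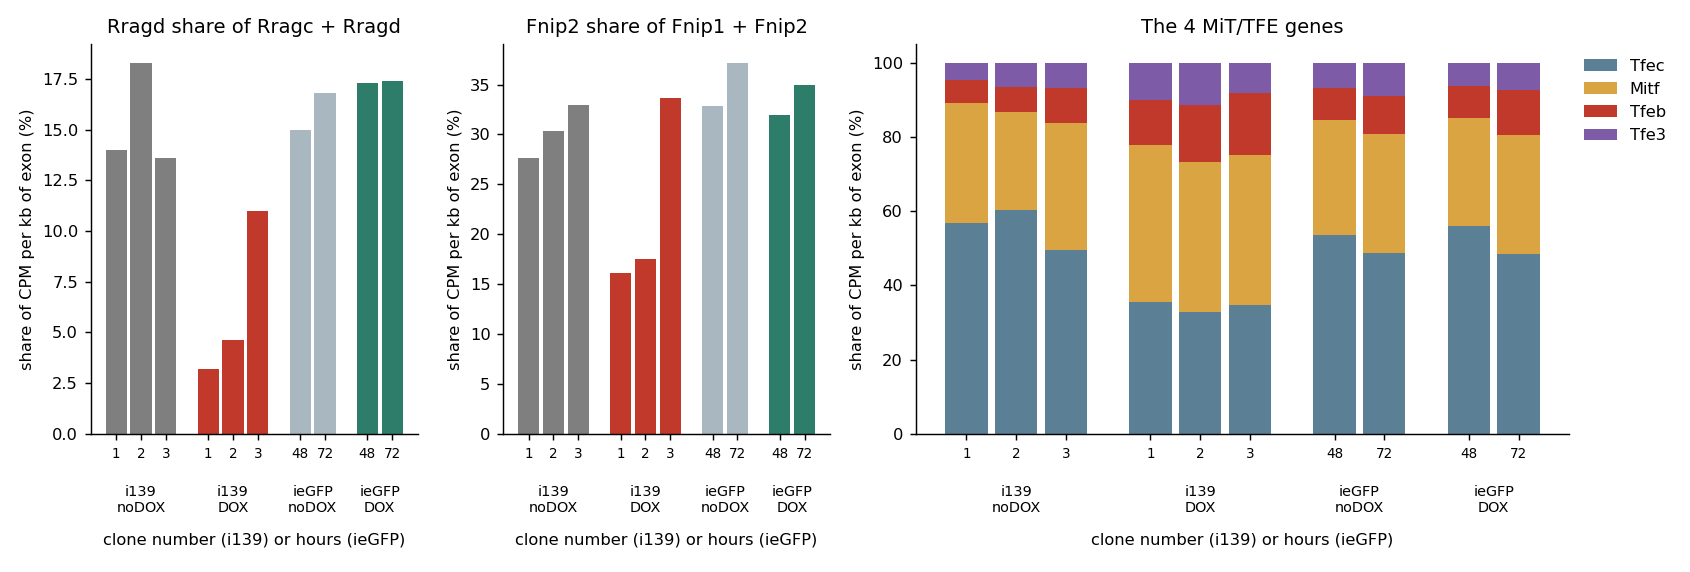
Share of the summed level (CPM per kb of exon, y axis in percent) that each paralog takes in every library (x axis, by group, with clone numbers for MLL-AF9-i139 and hours for MLL-AF9-ieGFP). The Rragd share is 3.18% to 11.0% in DOX-treated MLL-AF9-i139 clones and 13.6% to 18.3% in the other libraries, the Fnip2 share is low in 2 of the 3 DOX-treated clones, and the Tfec share of the MiT/TFE genes is below 36% in these 3 clones only.

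Flcn encodes folliculin itself (ENSMUSG00000032633, chromosome 11 from 59791408 to 59810016, minus strand). It had 45.5, 50.7 and 39.7 CPM in untreated clones 1, 2 and 3 and 47.7, 53.5 and 35.5 CPM with DOX. The MLL-AF9-ieGFP libraries had 47.9 and 37.8 CPM (untreated, 48 h and 72 h) and 48.2 and 37.9 CPM (treated). With and without DOX the values of a clone or time lay close together: the log2 difference was 0.07, 0.08 and -0.16 in the 3 clones and at most 0.01 in MLL-AF9-ieGFP. The log2 fold change in MLL-AF9-i139 was 0.02 (standard error 0.17, adjusted p = 0.961, edgeR). Flcn thus has an 8-base match to miR-139-5p as Rragd does, and its level with DOX did not differ beyond the spread between clones.

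Fnip1 and Fnip2, which encode the alternative partners of folliculin, had values in opposite directions in clones 1 and 2. Fnip1 (ENSMUSG00000035992, chromosome 11 from 54438199 to 54518235, plus strand) had 116, 93.6 and 108 CPM without DOX and 143, 143 and 103 CPM with DOX. Fnip2 (ENSMUSG00000061175, chromosome 3 from 79455974 to 79567796, minus strand) had 51.8, 47.8 and 61.9 CPM without DOX and 32.1, 35.6 and 61.4 CPM with DOX. In clone 3 neither gene moved by more than 0.06 on the log2 scale, and the groups overlapped for both. Over the 3 clones the log2 fold change was 0.31 for Fnip1 (standard error 0.15, adjusted p = 0.284, edgeR) and -0.31 for Fnip2 (standard error 0.24, adjusted p = 0.494, edgeR). Without clone 3 both passed the threshold, Fnip1 at 0.47 (adjusted p = 0.0219, edgeR) and Fnip2 at -0.54 (adjusted p = 0.00795, edgeR). Fnip2 overlaps Gm17359 on the opposite strand, which had 418 counts, and the strand setting of the counting is not given in the sources used here. Per kb, Fnip2 made up 27.6%, 30.3% and 32.9% of the sum of both in untreated clones 1, 2 and 3 and 16.1%, 17.5% and 33.6% in treated ones.

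Tfeb, a master regulator of lysosome genes, had 12.6, 11.5 and 12.9 CPM in untreated clones 1, 2 and 3 and 21.2, 25.8 and 17.4 CPM with DOX. The MLL-AF9-ieGFP libraries had 13.3 and 11.7 CPM (untreated, 48 h and 72 h) and 14.0 and 14.5 CPM (treated). All 3 DOX-treated MLL-AF9-i139 clones were above every other library. Tfeb was also higher with DOX in MLL-AF9-ieGFP, by a log2 difference of 0.07 at 48 h and 0.31 at 72 h, against 0.43 in clone 3. The gene (ENSMUSG00000023990, chromosome 17 from 47737030 to 47792419, plus strand) had a log2 fold change of 0.81 (standard error 0.17), or 1.76-fold, with differences of 0.75, 1.16 and 0.43 in clones 1, 2 and 3. Its adjusted p was 0.0959 without the clone in the model and 0.0287 with the clone as a block (edgeR). With DESeq2, the tool the study used, it was 0.000973.

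Tfe3, which binds the same motif as Tfeb, split by clone. The gene (ENSMUSG00000000134, chromosome X from 7762560 to 7775202, plus strand) had 15.8, 18.4 and 15.6 CPM without DOX and 28.7, 31.7 and 13.8 CPM with DOX. Clones 1 and 2 had 1.81 and 1.72 times their untreated level and clone 3 had 0.884 times. The log2 fold change over the 3 clones was 0.59 (standard error 0.28, adjusted p = 0.278, edgeR). Without clone 3 it was 0.84 (adjusted p = 0.00361, edgeR). The control clone had 17.9 and 17.1 CPM untreated and 16.5 and 14.6 CPM treated.

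Mitf (ENSMUSG00000035158, chromosome 6 from 97807052 to 98021349, plus strand) had 71.9, 49.9 and 51.6 CPM without DOX and 81.3, 74.0 and 45.6 CPM with DOX, a log2 difference of 0.23 with a standard error of 0.23 (edgeR, adjusted p = 0.617). The untreated level of clone 1 was close to the treated level of clone 2, and the groups overlapped.

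Tfec is the remaining MiT/TFE gene, known mainly from myeloid cells, and its level was looked at to complete the family. The gene (ENSMUSG00000029553, chromosome 6 from 16833373 to 16898441, minus strand) had 114, 102 and 67.7 CPM in untreated clones 1, 2 and 3 and 61.5, 54.6 and 35.2 CPM with DOX. Unlike Rragd, it was lower by nearly the same factor in each clone, with log2 differences of -0.89, -0.90 and -0.94, while the untreated levels of the clones differed. The log2 fold change of -0.89 had a standard error of 0.25 without the clone in the model (adjusted p = 0.125, edgeR) and of 0.08 with the clone as a block (adjusted p = 0.00915, edgeR), so Tfec fell within clones. The control clone had 83.4 and 55.8 CPM untreated and 90.2 and 57.6 CPM treated. Its 3′ UTR holds no match to either arm of miR-139.

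Of the 4 MiT/TFE genes, summed per kb in each library, Tfec made up 56.7%, 60.2% and 49.6% in untreated clones 1, 2 and 3 and 35.5%, 32.9% and 34.6% with DOX. Tfeb made up 6.20%, 6.67% and 9.31% without DOX and 12.1%, 15.3% and 16.8% with DOX, and Mitf 32.3%, 26.6% and 34.2% without and 42.4%, 40.3% and 40.4% with DOX. Tfec was in MLL-AF9-ieGFP between 48.4% and 56.0% of the family and Tfeb between 8.45% and 12.1%. Tfe3 made up 4.76%, 6.54% and 6.91% without and 10.0%, 11.5% and 8.18% with DOX in clones 1, 2 and 3. The sum itself was 35.9, 30.3 and 24.4 CPM per kb without and 31.0, 29.7 and 18.2 with DOX. In each of the 3 clones the family therefore had less Tfec and more Tfeb, Tfe3 and Mitf as shares, although the levels of Tfe3 and Mitf were lower in clone 3. A fall of Tfec, the largest part without DOX, by itself raises the other shares. In a bulk sample a change in the kinds of cells and a change of RNA per cell cannot be told apart.

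**Figure D3:**
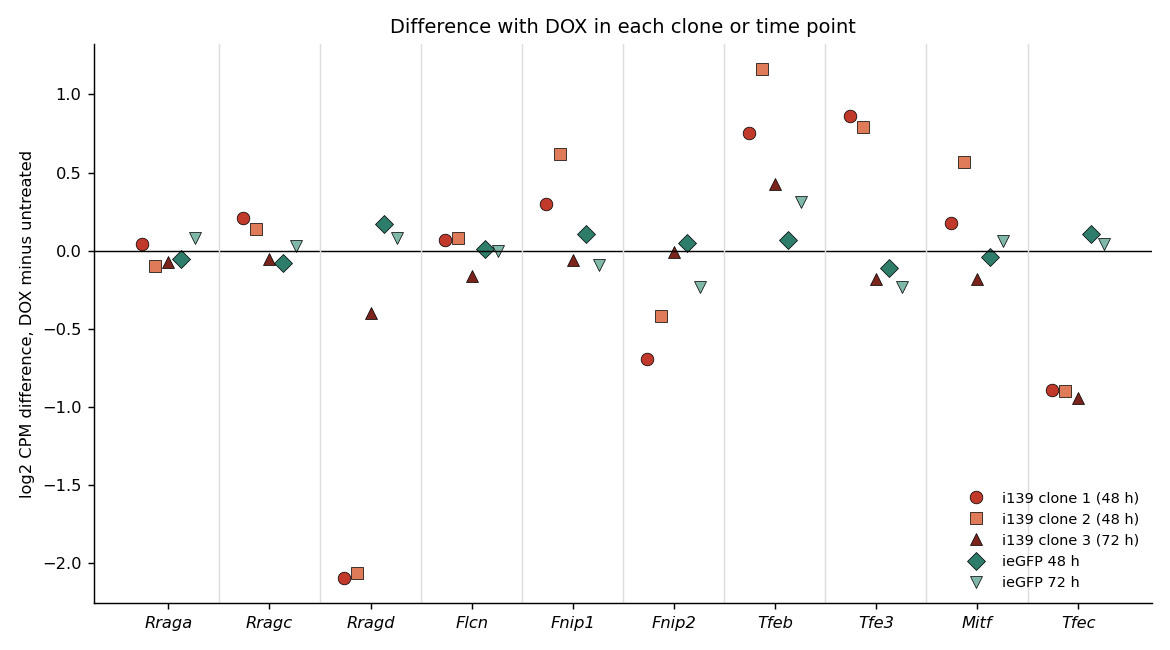
Difference in log2 CPM between DOX and untreated libraries (y axis) of each gene (x axis), with 1 point for each MLL-AF9-i139 clone (red shades) and each MLL-AF9-ieGFP time point (green). Rragd lies at -2.09, -2.06 and -0.40 in clones 1, 2 and 3 and at 0.17 and 0.08 in MLL-AF9-ieGFP, whereas the 3 clones lie between -0.94 and -0.89 for Tfec.

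Across all genes, 12 of 19223 passed an adjusted p of 0.05 in MLL-AF9-i139 without a block (0.0624%, edgeR), and with the clone as a block 2381 did (12.4%). Of the 8 measured genes of the set other than Rragd, none passed without the block and 1, Tfeb, passed with it. DESeq2 called 1556 genes (8.09%), of the 8 again Tfeb alone. Without clone 3, edgeR called 3981 of 18359 genes (21.7%) and 4 of the 8, Tfeb, Tfe3, Fnip1 and Fnip2. None of the 8 passed without clone 1 or without clone 2. DOX-treated and untreated clones did not overlap for Rragd, Tfeb and Tfec. This was so for 4777 of the 19223 genes (24.9%), with all DOX libraries higher for 12.0% of genes and lower for 12.8%, so a gene without overlap was common in these data.

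The genes around this set were taken as 6 lists, chosen with earlier results of these data known. Without the block none of their genes passed the threshold. With the clone as a block, 1356 of 19223 genes rose (7.05%) and 1025 fell (5.33%), and the counts of each list are read against these shares.

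Among 23 regulators of the Rag GTPases (the Ragulator scaffold, GATOR complexes, KICSTOR and amino acid sensors), 22 were tested, 6 rose and none fell with the block. The median log2 fold change was 0.03, against 0.01 over all genes. Among the 6 were Sesn3, Castor2, Sesn2, Slc38a9 and Lamtor4. Sesn2 and Sesn3 encode sestrins, stress-responsive proteins that inhibit mTORC1 through GATOR2. Sesn2 had 19.9, 20.7 and 32.1 CPM in untreated clones 1, 2 and 3 and 39.5, 43.0 and 38.0 CPM with DOX, a log2 difference of 0.74 ± 0.19 (standard error; edgeR adjusted p = 0.118 without and 0.0339 with the block). In MLL-AF9-ieGFP the difference of Sesn2 was 0.22 at 48 h and 0.44 at 72 h, against 0.24 in clone 3. Its interaction was 0.39 (adjusted p = 0.667 without and 0.336 with the block, edgeR). Lamtor4 had 0.28 in clone 3 and 0.04 and 0.27 in MLL-AF9-ieGFP at 48 h and 72 h. At these times Sesn3 had -0.57 and -0.35, Castor2 had 0.17 at both and Slc38a9 0.02 at both. Sesn3 is barely expressed, with 1.11, 0.365 and 0.532 CPM without DOX and 6.10, 2.47 and 1.40 CPM with DOX, a log2 difference of 2.32 ± 0.61 (standard error; edgeR adjusted p = 0.120 without and 0.0173 with the block). Castor2, a relative of the arginine sensor Castor1, had 6.05, 4.49 and 3.50 CPM without DOX and 24.7, 16.6 and 4.60 CPM with DOX, and clone 3 again had the smallest difference. Wdr24 had 0 counts in every library, and 100% of its body lies inside other annotated genes.

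Of the 9 genes of the mTORC1 core and its upstream switch, 1 fell with the block and none rose, with a median of -0.11. This was Deptor, an inhibitory subunit of mTORC1. It had 17.5, 14.0 and 16.2 CPM without DOX and 8.75, 8.31 and 11.2 CPM with DOX, a log2 difference of -0.74 ± 0.17 (standard error; edgeR adjusted p = 0.105 without and 0.0252 with the block). Rptor, which encodes the subunit that binds the Rag GTPases, had a log2 fold change of -0.22 (adjusted p = 0.406, edgeR), and Tsc2, a brake on Rheb, of 0.16 (adjusted p = 0.404, edgeR). Of the 8 genes for AMPK subunits and their kinase Stk11, 6 were tested and none passed in either direction, with a median of 0.14. The most moved were Prkag1 at 0.30, Prkab2 at 0.25 and Stk11 at 0.17 on the log2 scale.

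The list of MiT/TFE control holds 15 genes for 14-3-3 proteins, calcineurin, kinases and the exporter that place the factors in the cytosol or nucleus. With the block 3 rose and 1 fell, and the median was 0.00 in that fit and -0.01 without the block. Mapk3, which encodes the kinase ERK1, had 60.0, 66.5 and 48.8 CPM without DOX and 135, 149 and 66.4 CPM with DOX, a log2 difference of 1.02 ± 0.28 (standard error; edgeR adjusted p = 0.124 without and 0.0245 with the block). Ywhag, for a 14-3-3 protein, had a log2 fold change of 0.67 (adjusted p = 0.0205 with the block, edgeR) and Sfn, for another, of 0.46 (adjusted p = 0.0363 with the block, edgeR). The gene that fell was Xpo1, the nuclear exporter, at -0.42 (adjusted p = 0.0311 with the block, edgeR).

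The list of MiT/TFE targets, 47 genes of lysosomal enzymes, the proton pump and autophagy, had the highest median of the 6 lists. Of 44 tested, 23 rose with the block and none fell. Without the block the median log2 fold change was 0.54 (0.50 with it), and 41 of the 44 values were above 0, against 51.2% of all genes. Atp6v0a1, a subunit of the proton pump, had 42.4, 44.8 and 42.2 CPM without DOX and 101, 91.9 and 54.9 CPM with DOX, a log2 fold change of 0.95 (adjusted p = 0.100 without and 0.0273 with the block, edgeR). Wipi1, which acts in the formation of autophagosomes, had 14.1, 13.4 and 14.0 CPM without DOX and 26.6, 31.6 and 21.3 CPM with DOX, a log2 fold change of 0.95 (adjusted p = 0.0845 without and 0.0219 with the block, edgeR). For both genes every DOX-treated clone was above every untreated one. DOX-treated and untreated clones did not overlap for 17 of the 44 genes, all higher with DOX, against 12.0% of all genes with every DOX library higher. Atp6v0c and Map1lc3b had 0 counts in every library, as had Ctsf, and are not among the 44. Of the body of Map1lc3b, 100% lies inside other annotated genes, against 0% for Atp6v0c and Ctsf. The 0 counts of Map1lc3b therefore do not show that it is not expressed. For Atp6v0c and Ctsf there is no such overlap. Whether their 0 counts mean absent RNA or reads lost in mapping or counting was not tested.

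**Figure D4:**
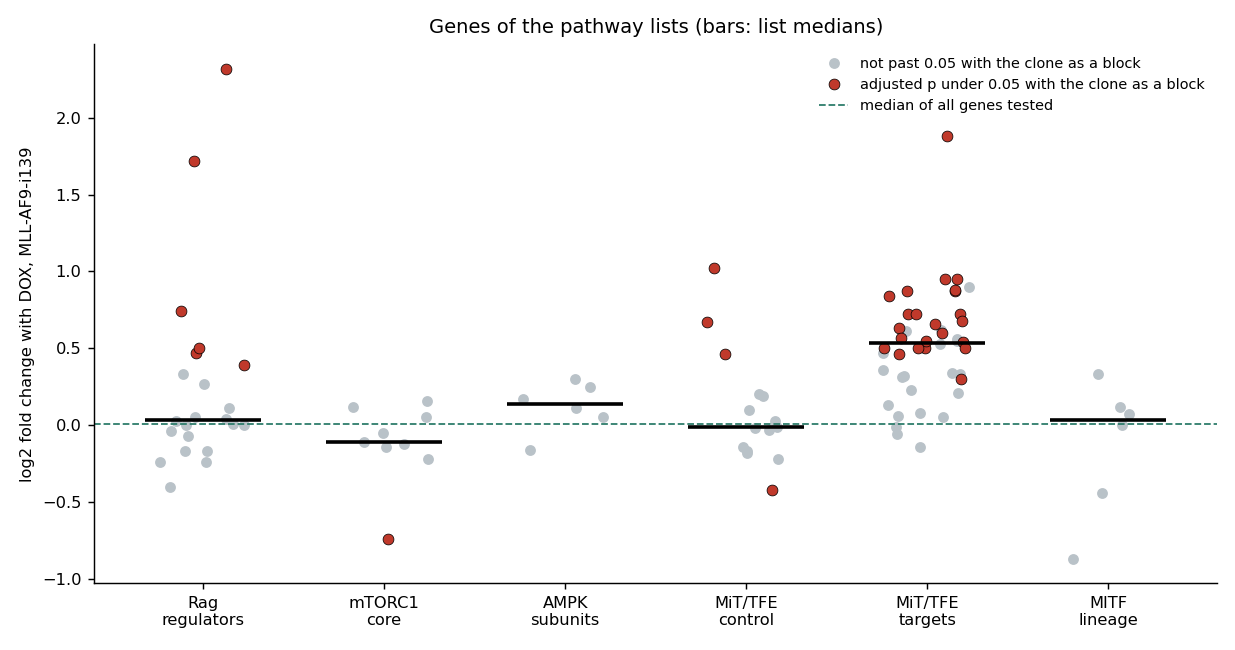
Log2 fold change with DOX in MLL-AF9-i139 (y axis, fit without the block) of every tested gene in the 6 pathway lists (x axis). Black bars are list medians, red points passed an adjusted p of 0.05 with the clone as a block, and the dashed line is the median of all genes tested. The MiT/TFE targets have a median of 0.54, and the other 5 lists lie between -0.11 and 0.14.

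The targets also differed between clones: their median log2 difference was 0.64 and 0.61 in clones 1 and 2 and 0.20 in clone 3. In MLL-AF9-ieGFP it was 0.03 at 48 h and 0.06 at 72 h. Of the 44 genes, 37 were higher with DOX in all 3 clones and 1 was lower in all 3, against 5255 and 5092 of all 19223 genes. Without clone 3, 31 of 43 tested targets passed, all of them higher with DOX, against 2122 of all 18359 genes that passed and were higher in that fit (11.6%). The list of genes tied to MITF in pigment cells, mast cells and osteoclasts gave another picture: only 6 of 14 had enough counts to be tested, 4 were above 0 and 2 below, and none passed. Among the untested, Acp5 had 0 counts, and 100% of its body lies inside other annotated genes, so its 0 counts do not show that it is not expressed. Pmel, a melanosome protein, was the member with over 1 CPM, and its log2 fold change was 0.12 (adjusted p = 0.805, edgeR).

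**Figure D5:**
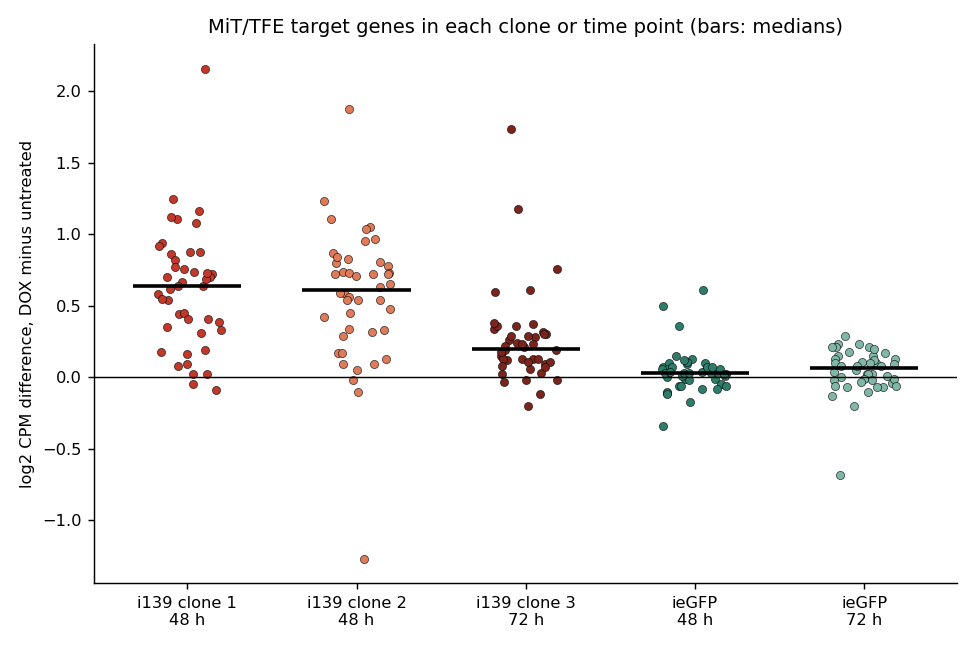
Difference in log2 CPM between DOX and untreated libraries (y axis) of the 44 tested MiT/TFE targets in each MLL-AF9-i139 clone and each MLL-AF9-ieGFP time point (x axis). Points are genes and black bars medians, which are 0.64, 0.61 and 0.20 in clones 1, 2 and 3 and 0.03 and 0.06 in MLL-AF9-ieGFP.

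Markers of myeloid cells were compared in the same libraries, and the counts that rose with the block are read against the 7.05% of all genes that did. The 11 maturing neutrophil markers summed to between 259 and 349 CPM in untreated and between 374 and 593 CPM in DOX-treated MLL-AF9-i139 clones, with none at 0 throughout a group, and 4 of 10 tested rose with the block. In MLL-AF9-ieGFP their sum was between 434 and 551 CPM. The 9 monocyte or macrophage markers summed to between 358 and 444 CPM without and between 289 and 432 CPM with DOX, with C1qa among those at 0 in both groups, and 1 of 6 tested rose. The median log2 difference of these 6 was 0.86, 1.01 and 0.04 in clones 1, 2 and 3. The 9 immature myeloid markers summed to between 3266 and 4950.1 CPM without and between 4583 and 7241 CPM with DOX, and 4 of 8 tested rose. With the block 5 of these 8 values were above 0 and 3 below. Without clone 3 and without the block, 4 were above 0 and 4 below, and 4 passed as higher and 1 as lower. The part of these cell states in the levels of the Rag, folliculin and MiT/TFE genes was not tested.

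In MLL-AF9-ieGFP, where DOX induces eGFP, 0 of 20269 genes passed the threshold (0%, edgeR), and 259 had an unadjusted p under 0.05. DESeq2 called 1 gene, Gm18340, named after its value was seen. All 9 measured genes of the set and Tfec had an adjusted p of 1.00 (edgeR). The log2 fold change of Rragd was 0.13 (standard error 0.40), that of Tfeb 0.19 (standard error 0.18) and that of Tfe3 -0.17 (standard error 0.30). Those of Rragc, Rraga, Flcn, Fnip1 and Mitf lay between -0.03 and 0.02, and Fnip2 had -0.10. The only replicates of this control are time points of 1 clone. The standard errors come from the fit of 4 groups, which shares 1 estimate of the spread over all 10 libraries, the MLL-AF9-i139 clones included. Changes of the size of these standard errors could not be detected.

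Whether DOX acted differently in the 2 constructs was tested as an interaction over all 10 libraries, in which 1 of 20269 genes passed (0.00493%, edgeR), Ssbp2, which is no member and is named after its value was seen. For Rragd the difference between constructs was -1.52 on the log2 scale (standard error 0.53), given as a description. For Tfeb it was 0.61 (standard error 0.24, adjusted p = 0.527, edgeR), for Tfe3 0.75 (standard error 0.39, adjusted p = 0.583, edgeR) and for Tfec -0.99 (standard error 0.41, adjusted p = 0.532, edgeR). With the clone or time as a block 38 genes passed (0.187%), and Tfec was among them (adjusted p = 0.0120, edgeR). Without clone 3 of MLL-AF9-i139, 2011 of 19753 genes passed (10.2%), among them Tfeb at 0.81 (adjusted p = 0.0256, edgeR) and Tfe3 at 1.02 (adjusted p = 0.00503, edgeR). Rragd and Tfec are also genes that were lower in all 3 clones and higher at both MLL-AF9-ieGFP times, an opposition in either direction that 10.6% of the 19223 genes showed.

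Part of the spread between clones was present without DOX. Untreated clone 3 differed from the mean of untreated clones 1 and 2 by a log2 difference of -0.67 for Tfec, -0.32 for Rragd, 0.32 for Fnip2, -0.27 for Flcn and -0.21 for Mitf. The other genes were within 0.13 of that mean. Between 72 h and 48 h of MLL-AF9-ieGFP the difference was -0.58 without and -0.65 with DOX for Tfec, -0.34 in both for Flcn, -0.40 and -0.30 for Mitf, 0.29 and 0.02 for Fnip2, and 0.07 and -0.02 for Rragd. With DOX, clone 3 differed from the mean of clones 1 and 2 by 1.35 for Rragd, -1.13 for Tfe3, 0.86 for Fnip2, -0.77 for Mitf and -0.72 for Tfec, the 5 largest of the 10 such differences. Each time value is a difference of 2 libraries with no replicate, and these values do not separate clone 3 from the time of its treatment.

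The genes whose pattern was most like that of Rragd were sought by Pearson's r of log2 CPM over the 10 libraries, among 11875 genes with a mean of at least 1 CPM. The highest were Polr2f (0.993), a subunit of the RNA polymerases, Gga2 (0.989), an adaptor for sorting from the Golgi to the lysosome, Tmem69 (0.988), Nup214 (0.988), a nuclear pore protein, and Taco1 (0.986), a factor for mitochondrial translation. Polr2f had 51.0, 59.2 and 53.4 CPM in untreated clones 1, 2 and 3, 28.9, 35.3 and 44.0 CPM with DOX and between 54.1 and 57.7 CPM in MLL-AF9-ieGFP. Its order of libraries is that of a difference in clones 1 and 2 and a smaller one in clone 3, and many genes share it: 1230 genes had an r above 0.9 and 734 an r below -0.9. The lowest were Tbc1d23 (-0.989), Src (-0.989), a tyrosine kinase, Tnfrsf23 (-0.987), Exoc1 (-0.985), an exocyst subunit, and Fyco1 (-0.985), an adaptor that carries autophagosomes along microtubules. Src had 0.840, 0.433 and 0.659 CPM without DOX and 15.9, 8.19 and 1.40 CPM with DOX.

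Within the set, Fnip2 was most like Rragd (r = 0.812), followed by Rraga (0.524), while Fnip1 (-0.918), Tfeb (-0.893), Tfe3 (-0.808), Rragc (-0.768), Mitf (-0.749) and Flcn (-0.289) had the opposite sign, and Tfec had 0.401. Among the 7 libraries without induced miR-139, in which Rragd varied only from 14.1 to 21.3 CPM, these values were -0.433 for Fnip2, -0.134 for Tfeb and 0.425 for Tfe3, and Fnip1 kept -0.715. These are descriptions over libraries that share clones, and most of the pattern is the contrast of the DOX-treated clones 1 and 2 with the rest.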

How the data were processed

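RNA was sequenced after ribosomal RNA depletion. The authors mapped reads to GRCm38 with STAR 2.5.3e, counted them per gene with featureCounts 1.6.0 on GENCODE M15 and deposited raw counts. The strand setting of the counting is not given in the sources used here. The table holds 14 further per-sample columns that were not used. Positions, overlaps and 3′ UTRs came from GENCODE M21 on GRCm38, and RefSeq tables supplied promoters and miRNAs.

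Counts of genes with at least 10 counts in total were tested with edgeR 4.0.16 (R 4.3.3; quasi-likelihood test, TMM, Benjamini-Hochberg adjustment, threshold 0.05) across all genes: 1 fit of the 6 MLL-AF9-i139 libraries with no term for the clone, and 1 fit of 4 groups over 10 libraries for MLL-AF9-ieGFP and the interaction. Log2 values of single libraries use a prior count of 2. Total counts were 35133308 to 47089725 per library. The fits were tested on simulated data. The members and lists were chosen with earlier results of these data known. The genes named were the members, Tfec, Pde2a and Mir139, the 3 genes of each list with the largest change and a mean of at least 1 CPM, the 5 genes at each end of likeness to Rragd, and markers. Other list genes named (Slc38a9, Lamtor4, Xpo1, Wdr24, Atp6v0c, Map1lc3b, Ctsf, Acp5) were picked after their values were seen. Some genes that this rule names are not reported here. Tmem55b of the target list was found as Pip4p1.

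Clone numbers pair libraries because the labels give 1 clone per number. Deviations from group means correlated within clones (r = 0.381, 0.288 and 0.414). Between clones r was -0.315 to -0.0436. Deviations from a mean of 3 libraries sum to 0, which pushes these values below 0 when those within clones are above 0. The values between clones are therefore no separate evidence of the pairing. Alternatives were DESeq2 1.42.0, scaling by RLE, no or a stricter count filter, the clone as a block, all 10 libraries in 1 fit, and each clone or time left out.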

Additional observations from a re-analysis of the deposited data

Results flagged for a closer look

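Of 26 genes named from the set, with Tfec, and its lists, 4 were looked at again. In these 4 all 3 MLL-AF9-i139 clones moved one way with DOX and both MLL-AF9-ieGFP times the other way. Over all 19223 genes 10.6% did so, so such an opposition was common in these data. Rragd had an interaction of -1.52 on the log2 scale, with differences of -2.09, -2.06 and -0.40 in the clones and 0.17 and 0.08 in MLL-AF9-ieGFP, and this difference was not tested because the gene was selected on it. Tfec had an interaction of -0.99, past the threshold with the block (adjusted p = 0.0120, edgeR) and not without it (adjusted p = 0.532). Sesn3 had an interaction of 2.86 (adjusted p = 0.527, edgeR), with -0.57 and -0.35 in MLL-AF9-ieGFP at under 1 CPM. Rptor had an interaction of -0.26 (adjusted p = 0.673, edgeR), with differences of -0.45, -0.26 and -0.02 in the clones and 0.05 and 0.00 in MLL-AF9-ieGFP.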

How the results depend on the processing

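Counts of genes depended on both the model and the clones kept. For DOX in MLL-AF9-i139, 12 genes passed, and 1556 with DESeq2, 562 with no filter on low counts, 6 with the stricter filter (10 counts in 3 libraries), 2381 with the replicate block and 1234 with all 10 libraries. With each clone left out the count ranged from 0 (without clone 2) through 1 (without clone 1) to 3981 (without clone 3). In fits chosen after seeing the data, with the block and without clone 1, 2 or 3, it was 324, 580 and 7974, and in the last of these 6 of the 8 measured genes of the set other than Rragd passed, Rragc (adjusted p = 0.0101, edgeR) and Mitf (3.00e-06) beside the 4 called there without the block. For MLL-AF9-ieGFP it was 0, and 1 with DESeq2 and 1 with no filter, in both Gm18340. For the interaction it was 1, and 82 with DESeq2, 71 with no filter, 0 with the stricter filter and 38 with the block, and it ranged from 0 to 2011 with a clone or time left out. Over all clones, the block changed the call of Tfeb and Tfec in MLL-AF9-i139 and of Tfec in the interaction, and of no other gene of the set that was tested.

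Among the 12 alternatives the log2 fold change of Rragd in MLL-AF9-i139 lay between -2.07 and -1.02 and that of Tfec between -0.92 and -0.88. The adjusted p of Tfeb lay between 4.66e-13 and 0.742 and passed 0.05 in 6 of 12, and that of Tfec likewise in 6 of 12 (5.29e-17 to 0.742). Values near 0 changed sign: Flcn in MLL-AF9-i139 ranged from -0.02 to 0.09 with a clone left out and was -0.04 with the block and without clone 1 or 2. In MLL-AF9-ieGFP, with a time left out, Rraga ranged from -0.05 to 0.06, Rragc from -0.07 to 0.02, Flcn from -0.01 to 0.01, Fnip1 from -0.11 to 0.11 and Fnip2 from -0.24 to 0.06. The cause was not tested.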

Other observations

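The sequence features described for these genes were set beside the change with DOX over all genes. The 3041 tested genes with a 7- or 8-base match to miR-139-5p in the 3′ UTR had a median log2 fold change of 0.01, and 48.5% were below 0. Those with an 8-base match, 601 genes, had a median of -0.02 and 51.6% of them were below 0. For the 10954 genes without a match the values were 0.02 and 48.5%. In the fit that blocks on the clone, 65 of the 601 passed and were lower (10.8%) and 51 higher (8.49%), against 721 (6.58%) and 947 (8.65%) of the genes without a match. Of the 3041 genes, 7.79% passed and were lower and 8.94% higher. The classes were not matched for the length of the 3′ UTR, and matches are more frequent in long ones, so these shares do not separate the match from the length. Rragd, which was selected on this contrast, is among the 601. Rragd and Flcn, with -1.38 and 0.02, are both in this class. Of the MiT/TFE targets with a promoter window, the 16 with CACGTGA had a median log2 fold change of 0.42 and the 18 without it 0.56, while the 766 genes with the motif in all had 0.03. With the block the order was the other way: 9 of the 16 passed and were higher (56.2%) and 8 of the 18 (44.4%), against 77 of the 766 (10.1%). These medians and shares are descriptions of the tested genes, with no test.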
